A study of Homo sapiens with 12 samples.

Results

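The baseline expression of 786-O was compared with that of A-498, a pair of established human cell lines that the labels describe as clear cell renal cell carcinoma lines. Only cells transfected with a control mimic, a synthetic RNA meant to have no target, entered the comparison. They gave 3 of the 12 libraries of the series, 1 of 786-O and 2 of A-498. Cells received 10 nM of the control mimic and RNA was taken after 48 h. Of 58051 genes counted, the 15584 with at least 100 reads over these 3 libraries were tested. The remaining 9 libraries were 786-O (1) and A-498 (2) with a miR-29 mimic and ACHN, another renal cancer line, with a control inhibitor (3) or a miR-29 inhibitor (3). They entered the same fit, in which the replicated groups gave the spread. Those with the miR-29 mimic also gave a repeat of the line comparison, and the ACHN controls gave a further line for reference. All cells had been transfected, so no group shows an untreated line.

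Clear cell renal cell carcinoma arises from the proximal tubule of the kidney and most often begins with loss of VHL, the ubiquitin ligase subunit that marks the α subunits of the hypoxia-inducible factors (HIF) for destruction. Without it, HIF stays active in normal oxygen and drives genes of glycolysis, pH control, blood vessel growth and lipid storage. 786-O and A-498 are both widely used as models of this VHL-deficient state, so a comparison of their control cells asks how far models of 1 disease differ at rest.

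The libraries differed in more than the line. Reads in genes numbered 44914022 in 786-O and 55398804 and 60392263 in A-498. Reads assigned to no gene were 45.7% of the total in 786-O and 37.2% and 38.7% in A-498, and the mitochondrial genome took 7.75% of gene reads in 786-O against 1.08% and 1.09% in A-498. The 2 libraries of 786-O carry a sequencing run identifier in their labels that the other 10 lack, so line and run cannot be told apart. For protein-coding genes grouped into deciles of transcript length, the median log2 ratio of 786-O over A-498 rose from -0.40 in the shortest decile to 0.33 in the longest. The ratio of 786-O over the ACHN controls rose from -0.40 to 0.29 along the same deciles, whereas that of A-498 over ACHN stayed between -0.027 and 0.015. These 3 ratios share control libraries.

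**Figure D1:**
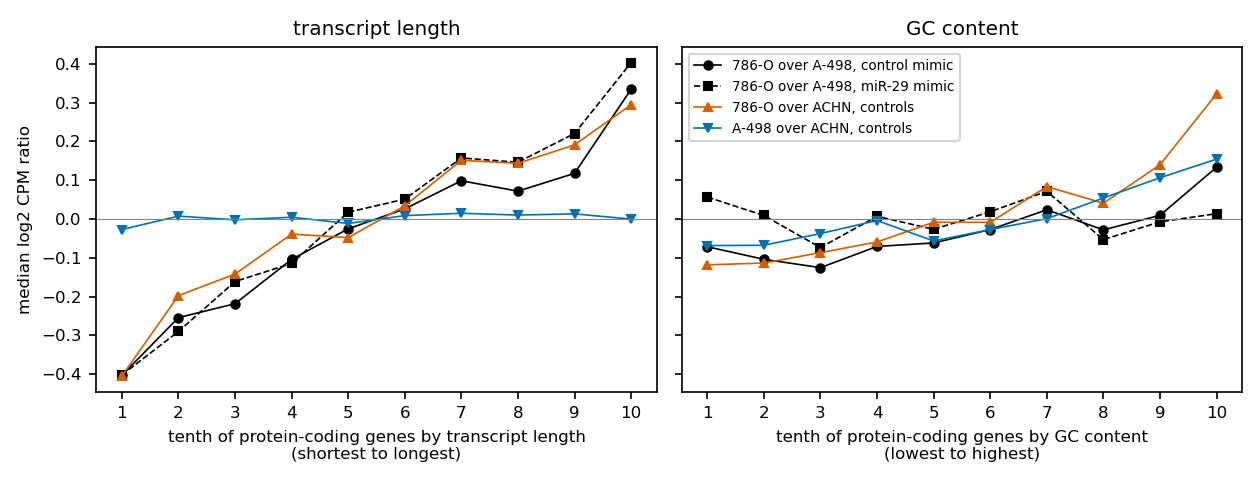
Median log2 CPM ratio (y axis) of protein-coding genes in deciles of transcript length (left) and GC content (right), for 786-O over A-498 in control and miR-29 mimic libraries and for either line over ACHN in control libraries. The ratios with 786-O rise from about -0.40 to between 0.29 and 0.40 with length, and the A-498 over ACHN ratio is flat with length. With GC content the ratios with 786-O change less, and that of A-498 over ACHN runs from -0.068 to 0.154.

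A gene was called when its Benjamini-Hochberg adjusted p in the quasi-likelihood test of edgeR was under 0.05 and its CPM (reads scaled to the size of the library) differed by at least 2-fold. By this rule 3128 genes (20.1% of those tested) were higher and 3685 (23.6%) were lower in 786-O. Ratios of at least 16-fold were seen for 462 and 707 of them. In every called gene the 786-O library lay outside the A-498 pair, which a 2-fold call all but ensures where that pair lies close together. At any size, 84.1% of the genes passed the adjusted p. The median log2 ratio of all tested genes was -0.075, with quartiles of -0.94 and 0.76. With library size in place of TMM factors that median moved to -0.20, and all ratios below are read against -0.075. Counts of called members in the lists below are likewise read against the shares of 20.1% higher and 23.6% lower. The 109 genes chosen by a fixed rule and called had adjusted p-values of at most 6.42e-06. Between the A-498 libraries, 68 genes (0.436%) differed 2-fold. The p-values rest on 6 residual degrees of freedom and on the assumption that the lone 786-O library varies as the replicated groups do. An exact permutation of 1 library against 2 could not give a p below 0.333.

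**Figure D2:**
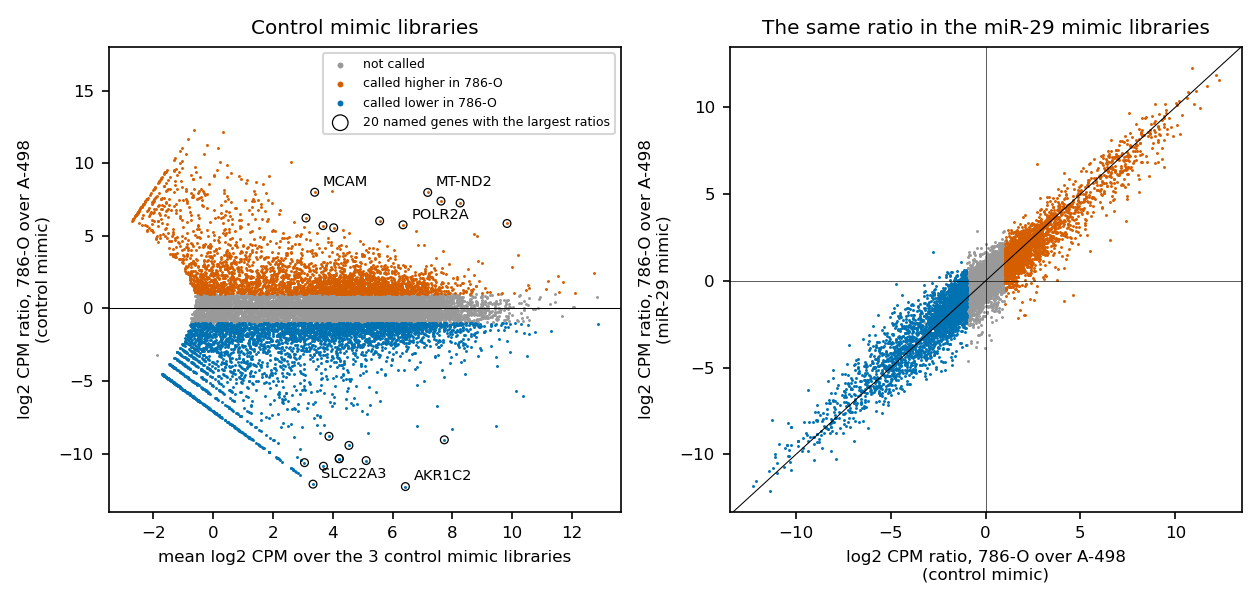
Left, log2 CPM ratio of 786-O over A-498 (y axis) against mean log2 CPM (x axis) in the control mimic libraries, each gene a point, with called genes in colour and the 10 genes each way of largest ratio among well-expressed protein-coding genes (mean log2 CPM of at least 3) that repeated in the mimic libraries circled. Right, the same ratio in the miR-29 mimic libraries (y axis) against that in the control mimic libraries (x axis); most called genes lie near the line of equality.

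Among well-expressed protein-coding genes, the largest ratios in favour of 786-O were those of MCAM, SPNS2, LRRN4, POLR2A, CSRP1, EDIL3 and 4 mitochondrial ND genes. MCAM (chr11:119308529-119321521), a cell adhesion molecule, had 423 CPM in 786-O and 1.83 and 1.44 CPM in A-498, a log2 ratio of 8.0 ± 0.095 (SE). SPNS2, which exports sphingosine-1-phosphate, had 152 CPM against 2.0 and 2.0 CPM. EDIL3, a matrix protein bound by integrins, had 212 CPM against 4.22 and 4.79 CPM. POLR2A, the large subunit of RNA polymerase II, had 1166 CPM against 21.8 and 21.3 CPM, and ACHN controls, at 79.0 ± 16.4 CPM (SD, n = 3), were also far below 786-O for this gene.

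In the opposite direction stood AKR1C2, SLC22A3, NID1, SBSPON, C1S, SLC16A4, COL5A1 and AKR1C1, among others. SLC22A3 (chr6:160348378-160452577), an organic cation transporter, had 0 reads in 786-O and 162 and 169 CPM in A-498, at least 2341-fold lower in 786-O when a floor of 3 reads was set for that library. NID1, which links laminin to collagen IV in basement membranes, had 0.047 CPM in 786-O against 164 and 153 CPM. C1S, a protease of the classical complement pathway, had 0.236 CPM against 390 and 391 CPM. SLC16A4, a monocarboxylate transporter family member, had 0.118 CPM (5 reads) against 199.6 and 207 CPM, and the log2 ratio was -10.35. The 786-O value was the outlier of the 3 by a wide margin in all these genes, as their choice by size of ratio ensured. The A-498 values lay close together.

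The repeat in libraries with the miR-29 mimic, which share no library with the controls but include the other library of the 786-O run, gave the same sign for 3065 of the 3128 genes called higher (98.0%) and for 3621 of the 3685 called lower (98.3%). A 2-fold ratio of the same sign was seen again for 2525 (80.7%) and 2986 (81.0%). Over all tested genes 87.4% had the same sign.

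In the HIF system EPAS1 was level and 6 of 13 tested components were called, beside 43.7% of all tested genes. EPAS1, which encodes HIF-2α, had 97.6 CPM in 786-O and 97.0 and 90.9 CPM in A-498 and did not pass the test (log2 ratio 0.056 ± 0.061 SE, adjusted p = 0.399 in edgeR). HIF1A had 142 CPM against 407 and 428 CPM, a log2 ratio of -1.56. EGLN3 (chr14:33924227-34462774), a prolyl hydroxylase that is both a HIF regulator and a HIF target, had 13.1 CPM against 417 and 415 CPM, a log2 ratio of -4.99 ± 0.09 (SE). VHL transcripts were higher in 786-O, at 57.2 CPM against 23 and 23.6 CPM, which says nothing of whether the protein works. Besides VHL, HIF1AN, the asparaginyl hydroxylase of HIF, was higher (185 CPM against 82.2 and 82.8 CPM), and besides HIF1A and EGLN3, ARNT2 and ELOB were lower. In the miR-29 mimic libraries the log2 ratio of VHL was 0.69 and that of HIF1AN 0.60, both under 2-fold.

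HIF target genes were more often lower than higher in 786-O. Of 35 tested, 16 were lower and 7 higher, beside 23.6% and 20.1% of all tested genes, with a median log2 ratio of -0.59. CXCR4, a chemokine receptor, had 0 reads in 786-O and 92.7 and 91.7 CPM in A-498. IGFBP3, which binds insulin-like growth factors, had 82.3 CPM against 4168 and 4140 CPM. CA9, the carbonic anhydrase used as a marker of clear cell tumours, was low in both lines, with 0.047 CPM (2 reads) in 786-O and 7.11 and 6.99 CPM in A-498. VEGFA, the main endothelial growth factor, had 99.2 CPM against 403 and 388 CPM. The 7 higher genes included HK2 and PFKFB4, both enzymes that push glucose into glycolysis, and PDK1, which holds pyruvate out of mitochondria. HK2 had 63.0 CPM against 14.4 and 13.2 CPM, and PFKFB4 had 35 CPM against 10.7 and 8.96 CPM. In the miR-29 mimic libraries the log2 ratio of PFKFB4 was 0.84, under 2-fold, and that of HK2 was 1.79. Genes further along glycolysis, LDHA (log2 ratio 0.74), PGK1 (-0.51), ENO1 (0.00022) and ALDOA (-0.59), were not called. NDUFA4L2 was below the count minimum in both lines.

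**Figure D3:**
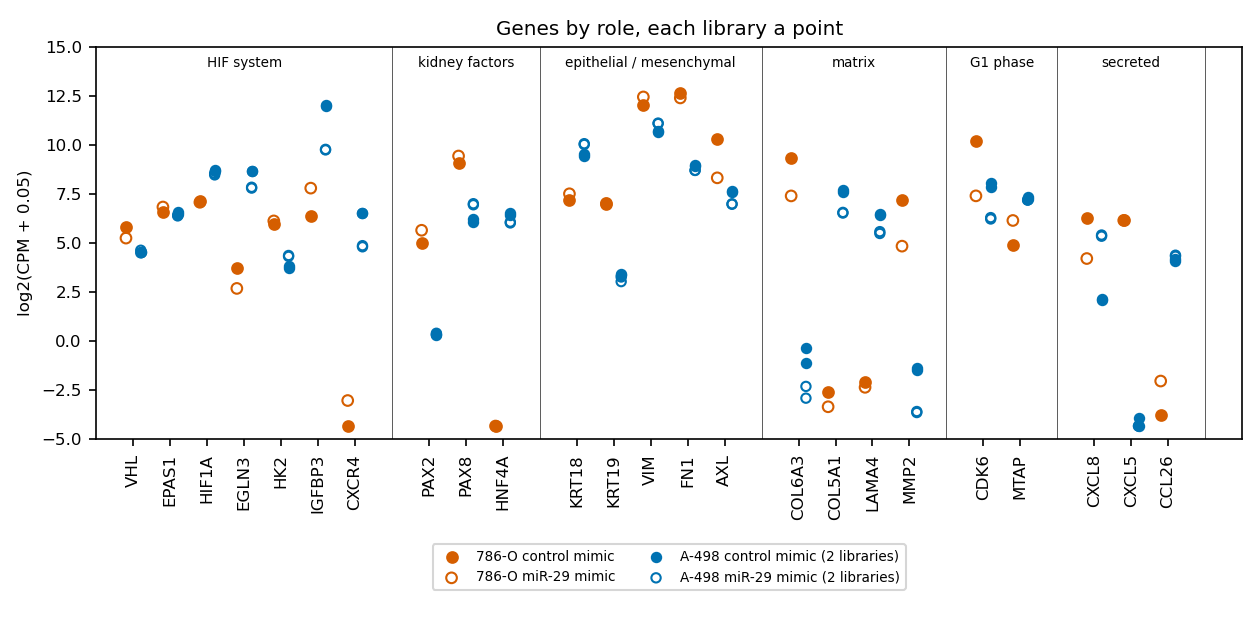
log2(CPM + 0.05) (y axis) of 24 named genes grouped by role (x axis), each library a point: 786-O in orange, A-498 in blue, filled for the control mimic and open for the miR-29 mimic. The A-498 control pair lies close together for nearly every gene, and CXCR4, HNF4A, COL5A1 and LAMA4 sit near the bottom in 786-O alone.

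Transcription factors of the kidney lineage separated the lines. PAX2 and PAX8, paired box factors of the early nephron that clear cell tumours retain, had 32.0 against 1.21 and 1.26 CPM and 540 against 74.3 and 67.3 CPM. HNF4A (chr20:44355699-44432845), the nuclear receptor that runs the mature proximal tubule programme, had 0 reads in 786-O against 93.1 and 87 CPM in A-498, at least 1273-fold lower by the same floor. Its relative HNF4G had 5.69 CPM against 18.5 and 20.4 CPM. Of 23 tested factors 12 were higher and 6 lower, with a median log2 ratio of 1.44. WT1, needed for the kidney primordium and podocytes, was at 15.9 CPM in 786-O with 1 read in the A-498 pair. The other 10 listed factors, EMX2 and FOXI1 among them, were under the minimum of 100 reads.

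Many genes of the differentiated tubule had few reads in both lines. Of 30 proximal tubule genes 14 were under the minimum, among them the transporters SLC34A1, SLC5A2 and SLC22A6 and the scavenger receptor LRP2, and of 18 distal tubule and collecting duct genes 13 were. The 16 proximal genes that were tested divided into 5 higher and 5 lower. HAVCR1, a marker of injured tubules, was higher in 786-O, at 416 CPM against 93.7 and 95.4 CPM, and so was GGT1 (43.0 against 11.8 and 10.4 CPM). HPD, an enzyme of tyrosine breakdown, was lower (0.849 against 30.1 and 28.9 CPM), as was MME, the brush border protease CD10 (13.2 against 77.9 and 81.1 CPM). CDH6, a cadherin of the proximal tubule, was near level, at 519 CPM against 467 and 510 CPM (adjusted p = 0.181 in edgeR). SCNN1A, a subunit of the epithelial sodium channel, had 15.5 CPM against 5.36 and 5.65 CPM.

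Of 10 markers of renal carcinoma cells 9 were tested, and PAX8, VIM, KRT8, KRT18, CDH6 and EPAS1 were above 60 CPM in each of the 3 libraries. The other 4 were low in at least 1 line, PAX2 at 1.21 and 1.26 CPM in A-498, CA9 at 0.047 CPM and MME at 13.2 CPM in 786-O, and NDUFA4L2 at no more than 0.158 CPM in either. Markers of other cell types varied by list. The erythroid list summed to at most 0.024 CPM. The leukocyte list summed to 1.13 CPM in 786-O and to 3.13 and 2.71 CPM in A-498, most of it from ITGAM, while CD3E had no read. The endothelial list summed to 10.9 CPM in 786-O and to 0.404 and 0.290 CPM in A-498. Almost all of the former was TIE1 (10.6 CPM), and VWF and CLDN5 had no read in 786-O. The fibroblast list summed to 34.0 CPM in 786-O against 17.2 and 15.5 CPM, with LUM at 18.5 CPM against 0 and 0, COL1A1 at 6.86 against 15.1 and 13.4 CPM, PDGFRB at 5.50 against 1.51 and 1.6 CPM and THY1 at 2.97 against 0.176 and 0.0807 CPM. Its other 4 genes, DCN, FAP, PDGFRA and COL3A1, had at most 0.165 CPM in each of the 3 libraries. The part of such genes in the line differences was not tested. A count of 0 in the 786-O library allows up to 0.0708 CPM.

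Epithelial and mesenchymal genes that reached the minimum leaned in opposite directions. Of 17 mesenchymal genes tested 10 were higher and 4 lower in 786-O (median log2 ratio 1.32), and of 18 epithelial genes 4 were higher and 9 lower (median -0.92). The minimum sums 1 library of 786-O and 2 of A-498, so genes read mainly in 786-O reach it less easily. The 11 untested epithelial genes went both ways. ST14 (2.17 against 0.035 and 0.048 CPM) and EPCAM (1.09 against 0.299 and 0.177 CPM) were higher in 786-O. CLDN7 (0.189 against 0.702 and 0.403 CPM) and CDH1 (0.047 against 0.386 and 0.210 CPM) were lower. FN1, the fibronectin of the interstitial matrix, had 6411 CPM in 786-O and 511 and 487 CPM in A-498, a log2 ratio of 3.68 ± 0.05 (SE). VIM, the intermediate filament of mesenchymal cells, had 4162 CPM against 1691 and 1644 CPM, and AXL, a receptor tyrosine kinase, had 1264 CPM against 200.4 and 194 CPM. The lists were not uniform. POSTN, a secreted matrix protein, had 0.024 CPM (1 read) against 36.6 and 40.2 CPM, and ACTA2, smooth muscle actin, had 2.90 CPM against 29.9 and 30.3 CPM. Among epithelial genes DSP, which anchors keratins at desmosomes, had 4.86 CPM against 77.5 and 75.3 CPM, CLDN4, a tight junction claudin, 4.13 against 36.5 and 34.3 CPM, and KRT18, a keratin of simple epithelia, 149.6 CPM against 748 and 703 CPM. KRT19 went the other way, at 128 CPM against 10.9 and 10.3 CPM, as did SPINT2, at 18.5 against 1.65 and 1.42 CPM. CDH1, E-cadherin, was under the minimum in both lines, and CDH2, N-cadherin, had 484 CPM against 332 and 346 CPM, under 2-fold in the controls (log2 ratio 0.51) and 1.04 in the mimic libraries.

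Extracellular matrix genes held some of the largest ratios of both signs. Among 28 collagen genes tested 5 were higher and 11 lower in 786-O. COL6A3 (chr2:237324003-237414328), a chain of the microfibrillar collagen VI, had 649 CPM in 786-O against 0.421 and 0.726 CPM (24 and 45 reads), a log2 ratio of 10.10. Other chains of that collagen differed by under 2-fold, COL6A1 at 95.8 against 77.7 and 70.1 CPM and COL6A2 at 145 against 126 and 114 CPM. COL5A1, which regulates the width of collagen fibrils, had 0.118 CPM against 212 and 193 CPM, and its partners COL5A2 (log2 ratio -1.67) and COL5A3 (-5.47) were lower too. COL4A3 and COL4A4, chains of the mature glomerular collagen IV, had log2 ratios of -3.57 and -4.24, while COL4A1 (-0.46) was not called. COL22A1 had 1 read in 786-O and 15.7 and 14.7 CPM in A-498. COL14A1 had 13.0 against 1.70 and 1.73 CPM.

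All 12 laminin genes were tested, and 3 were higher and 6 lower. LAMA2, the α chain of muscle basement membrane, had 56.9 CPM in 786-O against 1.53 and 2.18 CPM. LAMA4 had 0.189 CPM against 88.2 and 86.2 CPM, and LAMA1 had 1.18 CPM against 195 and 182 CPM. Among the metalloproteinases MMP2, a gelatinase, had 149 CPM against 0.316 and 0.339 CPM, MMP16, a membrane-bound activator of it, had 111 against 0.650 and 0.742 CPM, and MMP7, matrilysin, had 2.29 against 92.7 and 94.0 CPM. Of 11 tested metalloproteinase and TIMP genes 4 were higher and 2 lower. Of 19 integrin genes 2 were higher and 8 lower, with ITGB8, which activates latent TGF-β, at 202 against 49.8 and 57.0 CPM, and the collagen receptor subunit ITGA1 at 21.2 against 104 and 109.7 CPM. ITGA4 had 22.7 against 120.1 and 126 CPM.

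Secreted signals were more often higher than lower in the 786-O control. Of 21 chemokine and cytokine genes tested 9 were higher and 4 lower (median log2 ratio 0.85). CXCL5, a neutrophil chemokine, had 72 CPM in 786-O against 0 and 0.016 CPM. CXCL8, interleukin-8, had 78.6 CPM against 4.44 and 4.31 CPM, and CX3CL1, fractalkine, had 19.6 against 0.825 and 1.03 CPM. CCL26, an eosinophil chemokine, had 1 read in 786-O against 18.2 and 17.0 CPM. In the miR-29 mimic libraries the median of the list was -1.08, and 2 of the 9 higher genes changed sign there, CXCL8 (-1.17) and IL6 (-1.95). Interferon-stimulated genes were more often lower. XAF1 had 1 read in 786-O against 23.3 and 27.6 CPM and TRIM22 had 1.18 against 90.3 and 94.3 CPM. Of 34 such genes 15 were lower and 3 higher, with a median of -0.86. IFIT1, at 44 CPM against 18 and 23.5 CPM, was among the 3 and lost its 2-fold ratio without the first A-498 library (0.90).

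Genes of antigen presentation went both ways within each class. The class II chain HLA-DRA had no read in 786-O against 2.55 and 1.81 CPM, HLA-DMA, which loads class II peptides, had 0.944 CPM against 10.7 and 11.1 CPM, and the class II regulator CIITA had 0.307 CPM against 2.58 and 1.84 CPM, yet CD74, the invariant chain, had 5.90 CPM against 1.90 and 1.66 CPM. In the class I pathway TAPBP, tapasin, had 441 CPM against 99.0 and 94.7 CPM, while HLA-F had 2.81 against 14.6 and 13.1 CPM and B2M (log2 ratio -0.76) was not called. Of 18 tested 4 were higher and 7 lower. HLA genes are polymorphic and alike in sequence, so reads could be divided among them in the counting.

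Among regulators of the G1 phase, CDKN2A, CDKN2B and CCND2 had no read in any of the 3 libraries. MTAP (chr9:21802636-21937651), a purine salvage enzyme whose gene neighbours CDKN2A, had 30.3 CPM in 786-O, 153 and 164 CPM in A-498 and 0 in ACHN. CDK6 was higher (1204 CPM against 232 and 266 CPM) and its partner CCND3 was lower (10.9 against 106 and 97.8 CPM). In the miR-29 mimic libraries CCND3 had 78.2 CPM in 786-O and a log2 ratio of -0.85, under 2-fold, and CDK6 had a log2 ratio of 1.14. Of 14 tested G1 regulators 1 was higher and 3 were lower, with a median log2 ratio of -0.41.

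**Figure D4:**
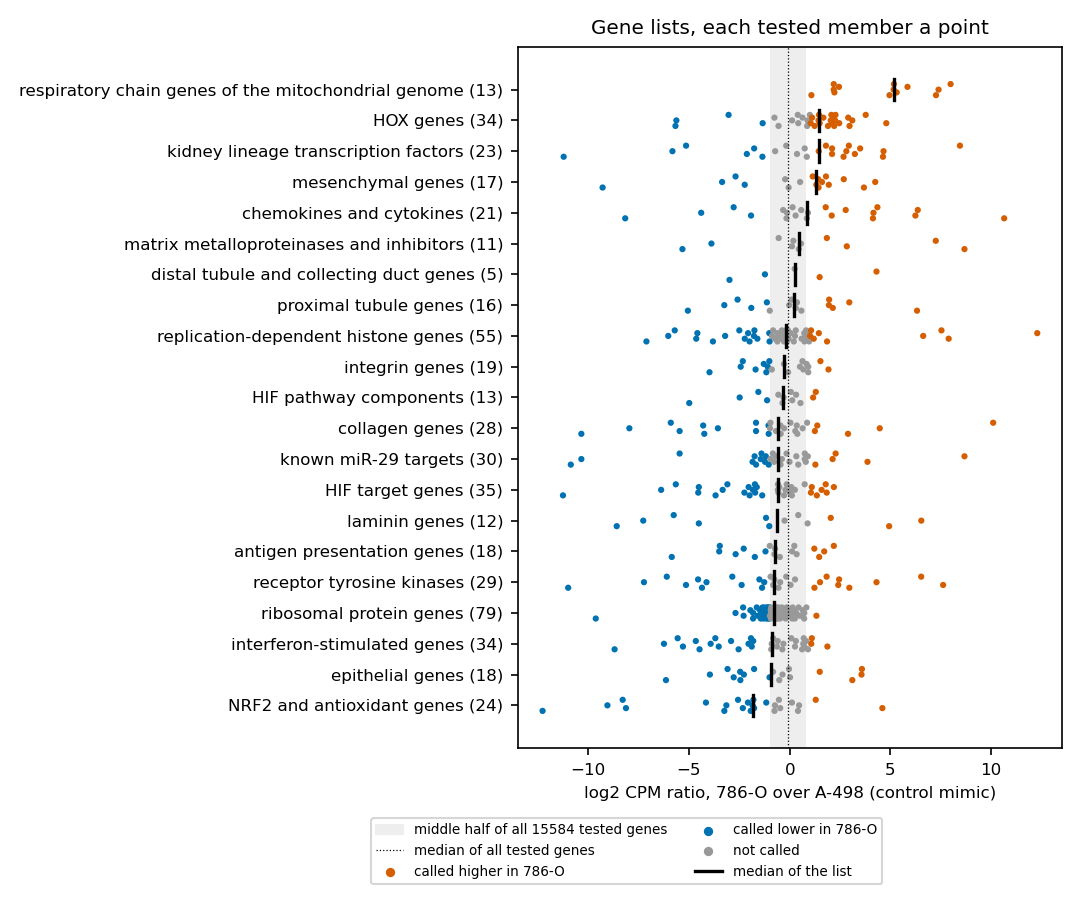
log2 CPM ratio of 786-O over A-498 (x axis) for each tested member of 21 gene lists (y axis, number tested in brackets), with the list median as a bar, the quartile range of all 15584 genes shaded and their median dotted. Of the lists drawn, the antioxidant list has the lowest median, -1.83, and the HOX, kidney factor and mitochondrial lists to the right.

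Antioxidant and detoxifying genes that the transcription factor NRF2 controls were lower in 786-O. Of 24 tested 15 were lower and 2 higher, with a median log2 ratio of -1.83 (-2.29 in the mimic libraries). AKR1C2 had 0.259 CPM in 786-O against 1485 and 1452 CPM, and AKR1C1 had 3.21 against 1706 and 1738 CPM. Both are aldo-keto reductases of steroids and carbonyls, near-identical in sequence to each other and to AKR1C3, so how the reads divide among them is uncertain. TXNRD1, thioredoxin reductase, had 325 CPM against 3068 and 3102 CPM, NQO1, a quinone reductase, had 193 against 1145 and 1138 CPM, and GCLM, which sets the rate of glutathione synthesis with GCLC, had 106 against 343 and 382 CPM. NFE2L2, the gene of NRF2, had 226 CPM against 165 and 175 CPM and its inhibitor KEAP1 had 63.3 against 91.3 and 84.4 CPM, neither called. The higher genes were FTH1, the ferritin heavy chain (2578 against 1073 and 1036 CPM), and UGT1A6, which shares exons with its neighbours. In A-498 the summed level of the list was 23437 and 23095 CPM, against 7709.97 CPM in 786-O and 4676 to 5010 CPM in the ACHN controls. For 7 called members ACHN was within 2-fold of 786-O and at least 2-fold from A-498, and for 2 the reverse held.

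NRF2 binds the antioxidant response element, so promoters of the list were searched for its core, written TGACNNNGC, on both strands. This word was chosen after the values were seen. RefSeq promoters (250 bases before to 50 after the gene start, GRCh38.p14) were matched for 18 of the 24 genes. The core was found in 4 of the 18 (22.2%) and in 15.1% of the 10378 promoters of all tested protein-coding genes that matched. The promoters of TXNRD1 (chr12:104215529-104215828, + strand), GCLM (chr1:93909381-93909680, - strand) and ME1 (chr6:83431002-83431301, - strand) are shown as the cases with the core nearest the start, with each match in capitals. TXNRD1 and ME1 hold 2 matches each and GCLM 1, and the first match in ME1 also contains TGANTCA, the word for AP-1 sites. TXNRD1 and GCLM were lower in 786-O, and ME1, the cytosolic malic enzyme, was not called (log2 ratio 0.11).
TXNRD1: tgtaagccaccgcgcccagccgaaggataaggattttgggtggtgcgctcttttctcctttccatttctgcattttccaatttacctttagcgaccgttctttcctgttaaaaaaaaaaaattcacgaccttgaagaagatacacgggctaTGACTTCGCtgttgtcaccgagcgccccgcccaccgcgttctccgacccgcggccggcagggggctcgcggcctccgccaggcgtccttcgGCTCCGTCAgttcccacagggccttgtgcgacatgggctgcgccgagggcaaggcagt
GCLM: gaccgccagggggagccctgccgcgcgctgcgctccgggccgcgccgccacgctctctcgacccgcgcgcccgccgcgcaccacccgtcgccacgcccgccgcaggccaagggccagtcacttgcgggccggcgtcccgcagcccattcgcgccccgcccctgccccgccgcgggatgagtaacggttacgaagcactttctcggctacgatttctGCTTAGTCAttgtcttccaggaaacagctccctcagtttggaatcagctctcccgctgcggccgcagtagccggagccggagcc
ME1: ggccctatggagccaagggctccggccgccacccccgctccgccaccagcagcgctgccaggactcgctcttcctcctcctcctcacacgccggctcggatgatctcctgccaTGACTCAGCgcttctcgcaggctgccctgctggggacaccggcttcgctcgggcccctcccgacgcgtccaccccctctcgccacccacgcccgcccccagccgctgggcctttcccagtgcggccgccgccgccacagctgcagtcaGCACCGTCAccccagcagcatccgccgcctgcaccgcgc

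HOX genes, which keep the positional identity of a cell, were mostly higher in 786-O. Of 34 tested 21 were higher and 4 lower, with a median log2 ratio of 1.44 in the controls and 1.44 in the mimic libraries. The higher genes came from all 4 clusters, and HOXC8 (9.60 CPM against 1.30 and 1.10 CPM), HOXA3 (99.4 against 12.8 and 13.7 CPM) and HOXB8 (17.2 against 0.527 and 0.645 CPM) were among them. The lower genes were HOXA11 (7.64 against 64.2 and 61.8 CPM), HOXD8 (5.05 against 12.7 and 13.0 CPM), HOXC13 and HOXD13. HOX clusters hold overlapping and antisense transcripts, which the stranded counting only partly separates.

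Receptor tyrosine kinases divided into 9 higher and 12 lower of 29 tested. ROR1, a receptor for WNT5A, had 158 CPM in 786-O against 20.8 and 19.8 CPM, and IGF1R, the insulin-like growth factor receptor, 107 against 19 and 19.9 CPM. EPHA7 had 0 reads against 72.9 and 81.5 CPM and MST1R 0.259 against 11.2 and 9.87 CPM. EGFR differed by under 2-fold, at 573 against 474 and 482 CPM, and MET, the hepatocyte growth factor receptor, was lower, at 134 against 963 and 969.8 CPM, with a mimic ratio of -0.91. Of 62 cancer-testis genes only 3 reached the minimum, with PRAME lower (37.8 against 152 and 148 CPM) and MAGEA3 (12.5 CPM) and MAGEC2 (20.3 CPM) higher, both with no read in A-498.

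The miR-29 targets matter for the design, since the study raised miR-29 in these lines. In the control mimic libraries 11 of 30 tested known targets were lower in 786-O and 5 higher. Besides NID1 and COL5A1, the lower group held SPARC, a collagen-binding matrix protein (682 CPM against 2293 and 2282 CPM), and DNMT3A, a DNA methyltransferase (8.33 against 29.5 and 30.6 CPM). MMP2, CDK6 and TET1, a 5-methylcytosine oxidase (36.2 against 2.35 and 2.57 CPM), were higher. COL1A1, a chain of collagen I, had 6.86 CPM against 15.1 and 13.4 CPM and fell under 2-fold without the first A-498 library (-0.96).

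Gene groups of short or unusual transcripts also moved, beside the differences in mitochondrial share and in the length trend given above. All 13 respiratory chain genes of the mitochondrial genome were higher in 786-O, but by very unequal amounts, from a log2 ratio of 1.08 for MT-CO3 (7169 CPM against 3408 and 3397 CPM) to 7.98 for MT-ND2 (5793 CPM against 22.3 and 23.4 CPM). In ACHN, MT-ND2 was at 38.4 ± 4.0 CPM (SD, n = 3), above A-498 and far below 786-O. Nuclear copies of mitochondrial sequence make the assignment of these reads uncertain, and reads of low alignment quality were 25.8% in 786-O against 16.9% and 18.9%. Of 79 ribosomal protein genes 33 were lower and 1 higher, with a median of -0.78. RPLP2, an acidic stalk protein, had 54.6 CPM against 360 and 346 CPM. RPL39L, a testis-enriched copy of RPL39, had no read in 786-O against 29.4 and 30.2 CPM. With the trends on length and GC content removed, the median of the ribosomal list was -0.58. Of 55 replication-dependent histone genes, whose short transcripts lack poly(A) tails, 9 were higher and 16 lower, and the median turned from -0.21 to 0.15 with those trends removed. H1-5 (chr6:27866792-27867588), a linker histone, had 188 CPM in 786-O and 0 reads in all A-498 and ACHN control libraries, while H2BC14 (1.56 against 87 and 79.9 CPM) and H2BC6 were lower. Histone genes have near-identical coding sequences. What part of these group differences goes with the run was not tested.

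Some genes had reads in one line and almost none in the other. At most 3 reads in each of the 4 A-498 libraries were found for 125 tested genes, 96 of them protein-coding, and at most 3 in both 786-O libraries for 394, of which 272 protein-coding. The latter condition covers fewer libraries, so the counts cannot be compared. NNT, the mitochondrial transhydrogenase that makes NADPH, had 111 CPM in 786-O and 0.053 and 0.016 CPM in A-498, and MT1E, a metallothionein, and GYPC, a red cell membrane glycophorin, had 122.55 and 77.7 CPM with no read in the A-498 controls. Conversely PHGDH, the first enzyme of serine synthesis, and GPX3, a secreted kidney glutathione peroxidase, had 102 and 97.2 CPM and 108 and 102 CPM in A-498 with no read in the 786-O control. For 42 of the 96 and 87 of the 272 protein-coding genes ACHN had at least 1 CPM.

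Some genes with almost no reads in one line lay side by side. Among the 96, 23 were zinc finger genes of the ZNF, ZFP and ZSCAN families, transcriptional repressors that lie in clusters, and 21 of these were on chromosome 19. The 272 held 14 such genes, 3 of them on chromosome 19, and the sets are not compared for the reason given above. This family was picked after its values were seen. It makes up 467 of the 12737 tested protein-coding genes, of which 118 were higher and 93 lower. On chromosome 19 lay 207 of the 467, with 76 higher and 35 lower, and elsewhere 260, with 42 higher and 58 lower. A run of 6 neighbouring tested genes, ZNF583, ZNF667, ZNF471, ZFP28, ZNF470 and ZNF71 (chr19:56397966-56626481), had at most 3 reads each in every A-498 library and from 2.41 to 7.36 CPM in the 786-O control. It was the longest of 7 runs of at least 2 genes, and in the other direction 13 runs were found, the longest of 3 genes, PCDHA10, PCDHAC1 and PCDHAC2 on chromosome 5, protocadherins that share their last exons.

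Larger regions differed by smaller amounts. The medians of nuclear chromosomes ran from -0.71 on chromosome 7, -0.62 on chromosome 13 and -0.59 on chromosome 9 to 0.40 on chromosome 11, 0.46 on chromosome 14 and 0.56 on chromosome 6. On chromosome 7, 40.8% of the 806 genes were called lower and 13.5% higher, and on chromosome 6, 35% of the 792 genes were higher and 13.8% lower. The mimic libraries gave -0.69 and 0.55 for these chromosomes. In windows of 40 consecutive protein-coding genes, 17 of 308 had a median of 0.8 or more and 15 of -0.8 or less, and 273 kept their sign in the mimic libraries. The lowest was chr9:19053141-34329268, from HAUS6 to KIF24, with a median of -1.30 and 25 genes lower, a stretch that holds MTAP and CDKN2A. There A-498 was above ACHN (median 0.91) and 786-O closer to it (-0.30). The highest windows were both on chromosome 19, chr19:51688346-54159721 (2.07) and chr19:19710472-32971991 (1.93). Each had 25 genes higher, with 10 lower in the former and 5 in the latter. Against ACHN the medians were 1.11 and 0.69 for 786-O and 0.63 and 0.026 for A-498. Copy number was not measured in these data.

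**Figure D5:**
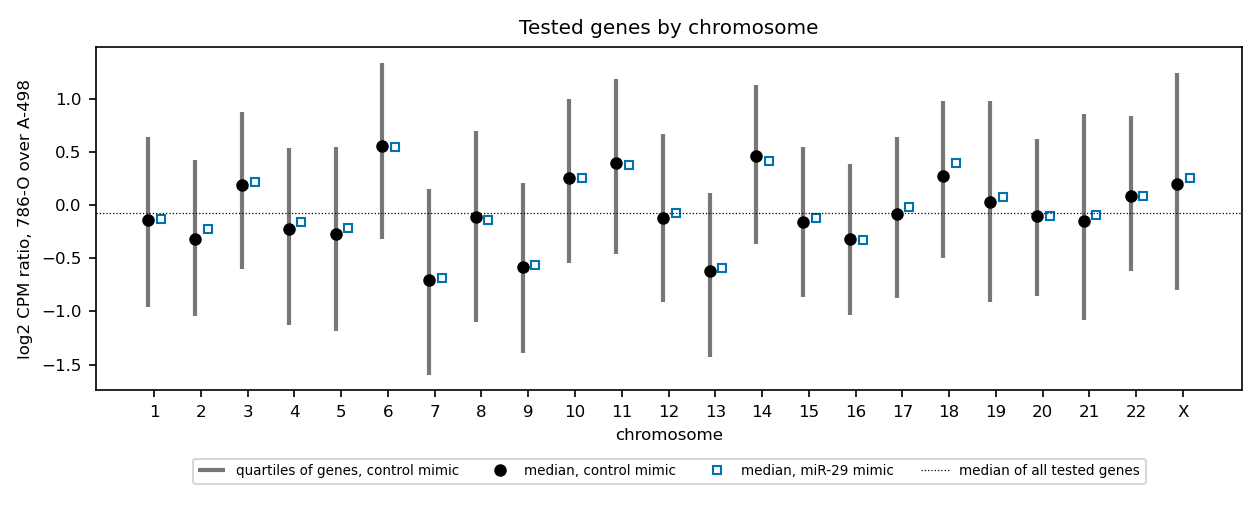
log2 CPM ratio of 786-O over A-498 (y axis) by chromosome (x axis): dots are medians and bars quartiles of tested genes in control mimic libraries, squares are medians in miR-29 mimic libraries. Chromosomes 7, 9 and 13 have the lowest medians and 6, 11 and 14 the highest, with control and mimic medians close together.

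Promoters of the called genes were compared by short words on either strand. A TATA word (TATAAA) was found in 7.69% of the 2199 promoters of genes lower in 786-O, 5.41% of the 2035 of genes higher and 5.69% of all. The GC box (GGGCGG) was in 65.9%, 72.1% and 70.2%, and the word GTTAAT in 4.73%, 3.39% and 3.68%. The HIF core word ACGTG was in 24.7%, 25.3% and 26.6%, GCGTG in 46.5%, 49.4% and 50.6%, CCAAT in 35.8%, 36.7% and 36.9%, and the AP-1 word TGANTCA in 5.05%, 5.11% and 4.47%. The median CpG observed over expected ratio was 0.798 for lower, 0.835 for higher and 0.841 for all. For genes with at most 3 reads in every library of one line it was 0.658 (A-498) and 0.692 (786-O). These shares describe the promoters and carry no test.

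ACHN placed the differences among 3 lines. Of the genes higher in 786-O, 1236 (39.5%) had an ACHN control level within 2-fold of A-498 and at least 2-fold from 786-O, and 636 (20.3%) the reverse. Of the genes lower in 786-O, 1355 (36.8%) were like A-498 in ACHN and 921 (25%) like 786-O. The labels of ACHN and A-498 lack the run identifier of 786-O, and the same control libraries enter both sides, so line and run cannot be told apart in these counts. KRT19 and EPHA7 show the variety: ACHN had 418 ± 18 CPM (SD, n = 3) for KRT19, above both, and 88.8 ± 2.0 CPM for EPHA7, near A-498.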

How the data were processed

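RNA was sequenced after depletion of ribosomal RNA with a stranded kit. The authors aligned paired reads to GRCh38 with HISAT2 and counted them per Ensembl gene with HTSeq-count in strict intersection mode, and they deposited raw counts with no normalisation. Their DESeq2 tables of fold changes and p-values were not used here. Symbols and positions came from GENCODE v44 (98.1% of genes matched). The study's methods describe the A-498 pair as biological replicates and set aside further A-498 samples over doubtful labels, which were not analysed here. Adjusted p-values measure only the spread between these libraries.

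Counts were fitted with edgeR 4.0.16 (R 4.3.3, glmQLFit and glmQLFTest, two-sided, TMM) over all 12 libraries with 1 term per group, and ratios are of CPM with a prior count of 2. The 508 genes of the Y chromosome, XIST and its antisense were left out. The biological coefficient of variation was 4.69%. The counts of the A-498 pair differed beyond sampling noise (chi-square of 7.67 per degree of freedom), so they were not counted as 1 library deposited again, which says nothing of how independent the cultures were. Standard errors are the absolute fitted log2 fold change over the square root of its F statistic. They are printed beside CPM ratios, which are a slightly different quantity. Where one line has few reads this measure can be too small, since counting noise alone can exceed it. The script was tested on simulated data. DESeq2 1.42.0, other scalings, count minimums and libraries were tried as alternatives.

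Members and lists were chosen with earlier results of these data known. Genes were named by a rule: the 10 largest ratios each way among called protein-coding genes with a mean log2 CPM of at least 3 that repeated in the mimic libraries, up to 2 called members each way per list, the 5 highest genes with at most 3 reads in every library of the other line, and a panel of 14. Further list members were named after their values were seen. No list was tested as a set. Some genes and lists are not reported here.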

Additional observations from a re-analysis of the deposited data

Results flagged for a closer look

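CXCL8 is given here because the line difference changed sign with the mimic: 786-O over A-498 was 4.16 on the log2 scale in the control mimic libraries and -1.17 in the miR-29 mimic libraries, and the difference between these passed the interaction test of edgeR over all 12 libraries (adjusted p = 1.21e-09). CXCL8 had 78.6 CPM in the control and 18.6 CPM in the mimic library of 786-O. In A-498 it had 4.44 and 4.31 CPM in the control and 40.9 and 42.6 CPM in the mimic libraries. The level thus fell in 786-O and rose in A-498. No group held 4 libraries or more, so none was examined for outlying values.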

How the results depend on the processing

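No paired analysis was possible because the labels give the 786-O library no replicate number and the groups compared share fewer than 2 numbers. The counts of 3128 genes higher and 3685 lower stayed within 1.5 times under library size or upper quartile scaling, DESeq2, fits on 3 or 6 libraries, an additive line effect and a biological coefficient of variation of 0.2. Leaving out 1 A-498 control library gave 3121 to 3139 higher and 3685 to 3690 lower, the remaining library being assumed to vary like the other groups. They moved with a minimum of 1000 counts (2012 and 2081), a coefficient of variation of 0.4 (1643 and 1707), at any size (6192 and 6915) and at 4-fold (1349 and 1723), and a minimum of 10 counts gave 5764 lower. Added after seeing the data, removal of the length and GC trends gave 3106 and 3569, leaving out the mitochondrial genome 3240 and 3533, and keeping genes with ACHN like 786-O 636 and 921. CXCL8 turned to -1.17 in the mimic libraries. EPAS1, not called, was -0.065 with library size, -0.0099 with upper quartile scaling and -0.13 without the trends, and CDH6, also not called, was -0.032 with library size and -0.029 without the trends. The cause was not tested. The list medians of proximal tubule genes and metalloproteinases changed sign in the mimic libraries (-0.11 and -0.23). Of 109 named genes called, 100 kept a 2-fold ratio of the same sign there. CXCL8 changed sign, and VHL, HIF1AN, PFKFB4, SCNN1A, IFIT1, CCND3, HOXD8 and FTH1 fell under 2-fold. For the 10 largest ratios each way, a kept 2-fold ratio was a condition of the choice. Genes with at most 3 reads in every library of the other line were also chosen partly on the mimic libraries. The count is therefore no independent repeat for those genes. With 1 library of 786-O the spread within that line cannot be measured.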
